A study of Mus musculus with 6 samples.

Results

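The genes described here are 42 members of the pathways by which a cell takes up, activates, makes, stores and burns fatty acids, picked by symbol from the 23268 genes of the deposited expression table of mouse colonic group 2 innate lymphoid cells (ILC2s). All 42 symbols were in the table, and 38 had a mean of at least 1 FPKM (fragments scaled by transcript length and library depth) over the libraries and entered the test. ILC2s are tissue-resident lymphocytes known for releasing type 2 cytokines without an antigen receptor. They had been sorted from the colons of C57BL/6 mice 6 to 8 weeks old, which had received either plain water (control, 3 libraries) or 3% dextran sulfate sodium (DSS, 3 libraries) over 6 days. DSS is a polymer that damages the colonic epithelium and brings on colitis. No allele, transgene or sex is named for either group, and the sort's markers are not described in the labels. Nothing in the labels tells if 1 mouse or several stood behind a library, so the p-values speak only of the spread among these libraries, some of which may be technical.

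Fatty acids enter cells through membrane carriers, are joined to coenzyme A by acyl-CoA synthetases, and then either are built into glycerolipids and stored as triglyceride in lipid droplets or are shuttled into mitochondria and degraded by beta-oxidation. New fatty acids are made in the cytosol from citrate-derived acetyl-CoA and are then elongated and desaturated in the endoplasmic reticulum. The nuclear receptors of the PPAR family bind fatty acids and switch on many genes of uptake, storage and oxidation. PPAR-gamma is known to act in ILC2s, and ILC2s are known to draw on external lipid and to form lipid droplets. The synthesis and storage genes are called the anabolic arm here, and the lipolysis and beta-oxidation genes the catabolic arm.

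No member passed the test between DSS and control. With limma on log2(FPKM + 1) and Benjamini-Hochberg adjustment over 12187 genes, 0 of 38 tested members had an adjusted p under 0.05, where 27 of all tested genes, or 0.222%, did. By unadjusted p under 0.05, 4 members stood below the threshold (Acsl3, Acsl4, Elovl5 and Plin2), against 1096 of 12187 genes. On whole fragments recovered from the FPKM values, limma voom also called 0 members, and limma with gene-by-gene library weights, a setting added after the data were seen, called 2 (Elovl5 and Plin2). What the libraries do show is a set of 9 members whose 3 DSS values all lay on one side of the 3 control values. Of these, 3 were higher in DSS (Plin2, Plin3 and Acadm), which is 7.89% of 38 members beside 6.35% of all tested genes. The other 6 were lower in DSS (Acsl3, Acsl4, Elovl5, Elovl6, Dgat2 and Acadl), which is 15.8% beside 9.6% of all tested genes. The first share is near that of all genes and is no result about the members, and the second is 6 genes with no test behind it.

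The promoters of Plin2 and Plin3 (perilipins), Elovl5 and Elovl6 (elongases), and Acsl3 and Acsl4 (acyl-CoA synthetases) are shown because these are pairs of one family whose DSS values lay on the same side, higher for the first pair and lower for the others. Each line gives the 250 bases before the transcription start, 5′ to 3′, from RefSeq on build GRCm38.p6. The Plin3 window lies inside the gene span given for Plin3 below, so its start is not the outermost one annotated. Capitals mark a nuclear receptor half-site (AGGTCA), an E-box (CACGTG) or a CCAAT box (CCAAT), each searched on both strands.
Plin2 (chr4:86670060-86670309, minus strand): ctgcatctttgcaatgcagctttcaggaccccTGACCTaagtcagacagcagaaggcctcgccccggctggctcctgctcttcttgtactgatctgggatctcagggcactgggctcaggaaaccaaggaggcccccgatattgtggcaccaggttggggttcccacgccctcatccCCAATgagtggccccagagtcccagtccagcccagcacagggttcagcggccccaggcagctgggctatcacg
Plin3 (chr17:56290512-56290761, minus strand): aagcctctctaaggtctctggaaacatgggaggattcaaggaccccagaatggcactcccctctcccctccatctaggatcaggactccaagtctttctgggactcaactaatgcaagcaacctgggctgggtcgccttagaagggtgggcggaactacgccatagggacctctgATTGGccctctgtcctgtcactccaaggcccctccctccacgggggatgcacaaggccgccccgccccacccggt
Elovl5 (chr9:77917115-77917364, plus strand): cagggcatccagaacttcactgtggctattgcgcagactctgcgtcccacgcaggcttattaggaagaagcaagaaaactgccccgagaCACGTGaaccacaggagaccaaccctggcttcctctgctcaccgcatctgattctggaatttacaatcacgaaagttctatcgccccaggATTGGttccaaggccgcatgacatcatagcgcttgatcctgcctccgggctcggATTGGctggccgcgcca
Elovl6 (chr3:129532136-129532385, plus strand): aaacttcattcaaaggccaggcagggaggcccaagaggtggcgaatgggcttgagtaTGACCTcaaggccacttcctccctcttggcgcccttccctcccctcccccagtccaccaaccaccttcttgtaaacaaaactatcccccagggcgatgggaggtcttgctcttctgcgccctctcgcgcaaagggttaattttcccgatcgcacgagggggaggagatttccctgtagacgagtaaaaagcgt
Acsl3 (chr1:78657575-78657824, plus strand): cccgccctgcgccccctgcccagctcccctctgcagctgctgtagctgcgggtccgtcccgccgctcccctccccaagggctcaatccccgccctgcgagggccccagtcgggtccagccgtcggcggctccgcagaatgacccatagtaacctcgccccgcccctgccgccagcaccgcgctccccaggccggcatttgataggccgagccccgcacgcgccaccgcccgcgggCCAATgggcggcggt
Acsl4 (chrX:142390536-142390785, minus strand): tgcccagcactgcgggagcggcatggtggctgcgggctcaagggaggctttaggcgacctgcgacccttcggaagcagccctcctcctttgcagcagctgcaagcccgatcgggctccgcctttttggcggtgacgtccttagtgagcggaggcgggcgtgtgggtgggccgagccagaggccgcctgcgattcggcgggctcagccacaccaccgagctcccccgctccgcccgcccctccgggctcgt
The half-site, the unit that PPAR and its partner RXR read in pairs, occurred once before Plin2, from base -218 to -213 relative to the start, and once before Elovl6, from -193 to -188. A CCAAT box stood at -73 to -69 in Plin2 and at -75 to -71 in Plin3, and Elovl5 had 2 of them, one of them at -71 to -67. Acsl3 had 1 at -15 to -11, and Acsl4 had none of the 3 motifs. Elovl5 also held an E-box from -161 to -156. Plin2 held one across the start, from -4 to 2, which is not in capitals because the line ends at the start. Of the 42 members, 33 were matched in the promoter table, and windows of 250 bases before to 50 after the start were scanned in 32851 promoters of 27025 genes. A gene was counted if any of its promoters held the motif. The half-site was found in 8 of 33 members and in 18.13% of all genes, the E-box in 3 members and 8.09%, the CCAAT box in 17 members and 41.06%, and the GC box (GGGCGG) in 24 members and 38.2%. The sterol regulatory element (TCACNCCAC) was in 1 member, Acsl1, and in 1.44% of all genes. A pair of half-sites head to tail with 1 base between them, the DR1 element of PPARs, was in 0 members and in 0.05% of all genes. These matches describe letters in a window and are neither binding sites nor a cause.

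The libraries differed in ways the groups do not explain. They held between 9962415 and 23119390 fragments. The first principal component, with 48.1% of the variance, set both replicates 3 apart from the others (scores of 28.31 and 70.48, against -33.03 to -10.87). Both replicates 3 also had the highest mean over 1087 olfactory receptor genes, 0.582 and 0.963 FPKM against 0.035 to 0.184. The second component, with 28.5%, set DSS replicate 1 apart with a score of -57.93. All 14 ILC2 markers (Gata3, Rora, Il7r, Il1rl1 and others) averaged at least 1 FPKM. Their sum was 6466 to 7392 FPKM in control and 4957 to 7788 in DSS. Id2 was the largest part of it, at 3187 to 3835 FPKM in control and 2296 to 4960 in DSS. Of the 14 markers, 6 were lower in DSS with no overlap (Gata3, Rora, Icos, Il2ra, Hpgds and Nmur1), against 9.6% of all tested genes, and 0 were higher. Their part in the lower values of members was not tested. Markers of other cells were also present. The sum over 8 genes of group 3 innate lymphoid cells was 238 to 353 FPKM in control and 89.3 to 348 in DSS. Of these 8, only Il17f had groups that did not overlap, at 44.9 to 64.0 FPKM in control and 8.41 to 29.3 in DSS. Il22 overlapped, at 114 to 219 FPKM in control and 48.7 to 262 in DSS. Summed over 12 neutrophil genes, the level was 3.04 to 9.99 FPKM in control and 69.1 to 116 in DSS (4 of 12 higher with no overlap), with S100a8 at 0 in control replicate 3 and Ly6g at 0 in control replicate 2 and in DSS replicates 1 and 2. The sum over 13 monocyte and macrophage genes was 31.7 to 39.8 in control and 38.2 to 65.8 in DSS, that over 14 colon epithelium genes 20.6 to 40.8 and 56.2 to 62.3, and that over 6 B and plasma cell genes 26.6 to 39.1 and 49.7 to 291. In the same order, 2 of 13, 4 of 14 and 3 of 6 genes were higher in DSS with no overlap, and 0 were lower. Beside these counts and the neutrophil count, 6.35% of all tested genes were higher in DSS with no overlap. The sum over 8 adipocyte genes stayed at 2.14 to 9.98 in control and 3.63 to 12.5 in DSS, and the adipocyte hormone Adipoq was at 0 in control replicates 1 and 2 and DSS replicate 1. These sorted cells are bulk samples, so fewer cells of a type and less RNA per cell cannot be told apart.

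**Figure D1:**
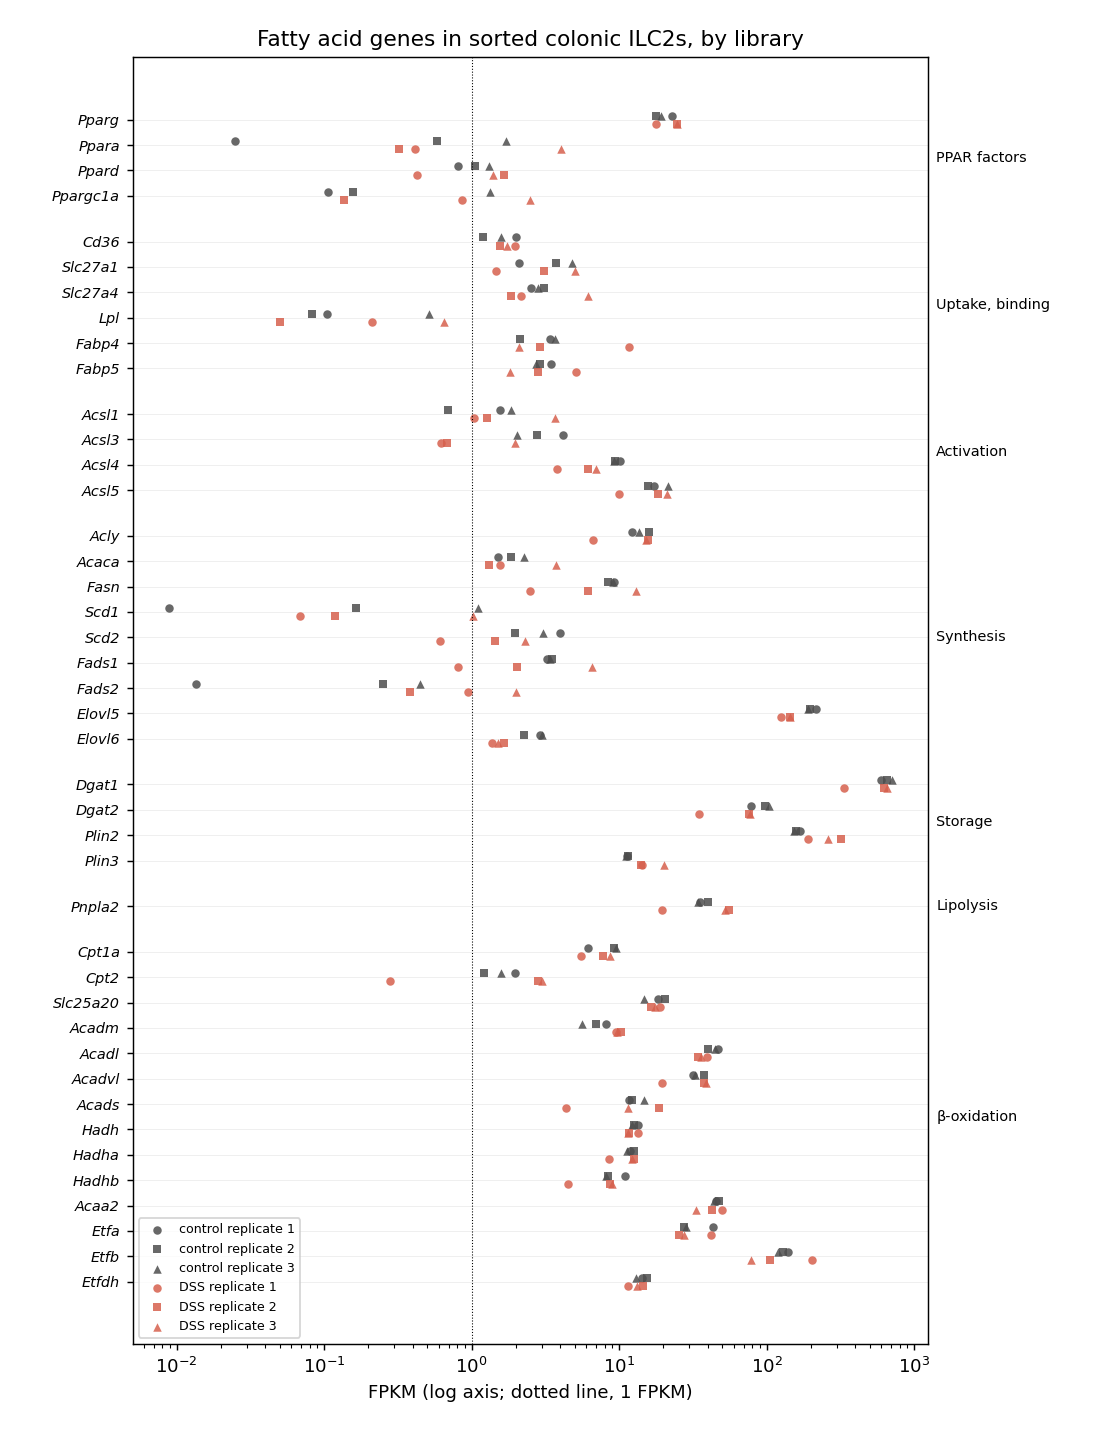
FPKM of each of the 42 members (y axis, grouped by role) in each library (x axis, logarithmic, with a dotted line at 1 FPKM); dark points are control and red points DSS libraries, and the shape gives the replicate. Levels run from under 1 FPKM for Lpl, Scd1 and Fads2 in most libraries to 709 FPKM for Dgat1.

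Plin2 (perilipin 2, chr4:86648386-86670060, build GRCm38) encodes the coat protein of lipid droplets in cells other than adipocytes and was the 304th most abundant of 12187 tested genes. Its FPKM was 168, 159 and 155 in control replicates 1, 2 and 3 and 192, 319 and 261 in DSS replicates 1, 2 and 3. The groups did not overlap, and DSS replicate 1 lay nearest to the controls. The means were 160.4 ± 6.87 and 257 ± 63.7 FPKM (SD, n = 3 each), a ratio of 1.604, and the difference was 0.65 ± 0.23 on the log2(FPKM + 1) scale (SE, limma adjusted p = 0.381). Without DSS replicate 1 the difference was 0.84 with an adjusted p of 0.00649, and over all alternatives the adjusted p ran from 0.00441 to 1.00. The neutrophil, epithelial and B and plasma cell sums above were also higher in DSS with no overlap, the monocyte and macrophage sum was higher in DSS replicates 2 and 3 only, and their part in the Plin2 values was not tested.

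Plin3 (chr17:56277476-56292873), a perilipin that also binds nascent droplets, was far less abundant. It measured 11.4, 11.5 and 11.2 FPKM in control replicates 1, 2 and 3 and 14.3, 14.2 and 20.05 in DSS replicates 1, 2 and 3. The control values lay within a narrow band, and all DSS values lay above it. The difference was 0.46 ± 0.21 on the log2(FPKM + 1) scale (SE, n = 3 each, limma adjusted p = 0.581).

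DGAT1 and DGAT2 are unrelated enzymes that carry out the last step of triglyceride synthesis. Dgat1 (chr15:76502015-76511953) was the most abundant member and ranked 127 of 12187 genes. Its FPKM was 597, 652 and 709 in control replicates 1, 2 and 3 and 336, 627 and 659.7 in DSS replicates 1, 2 and 3. Only DSS replicate 1 lay below the control range, so the groups overlapped (-0.33 ± 0.28 on the log2 scale, SE, n = 3 each, limma adjusted p = 0.813). Dgat2 (chr7:99153658-99182719) measured 78.6, 97.8 and 104 FPKM in control and 35.0, 76.2 and 76.7 in DSS, in the same replicate order. All DSS values were below the lowest control value, 2 of them by only a few FPKM. The means were 93.5 ± 13.2 and 62.6 ± 23.9 FPKM (SD, n = 3 each), and the difference was -0.65 ± 0.31 on the log2 scale (SE, limma adjusted p = 0.589). After quantile normalization the groups of Dgat2 and of Plin2 overlapped.

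**Figure D2:**
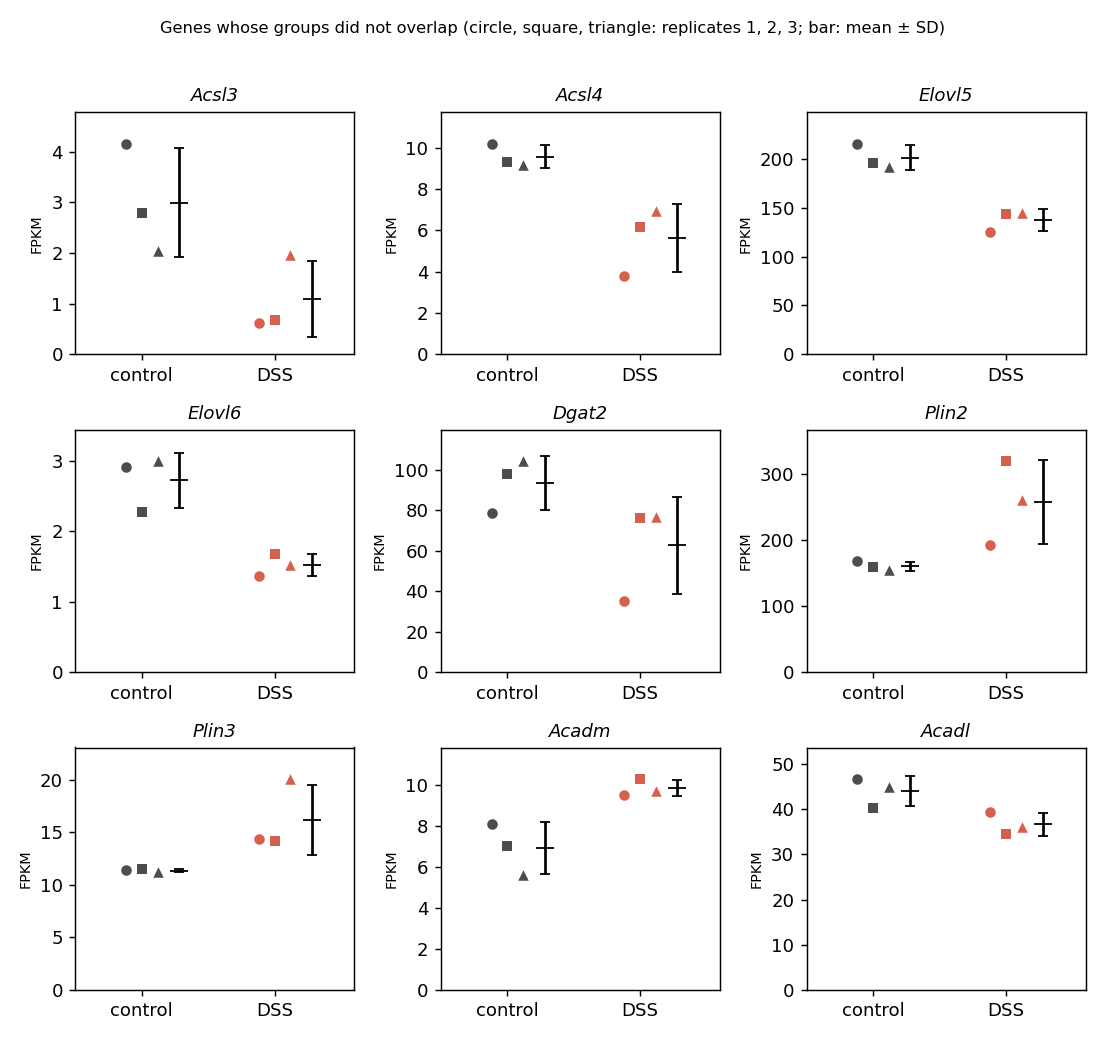
FPKM (y axes, linear from 0) in the control and DSS libraries for the 9 members whose groups did not overlap; shapes are replicates and the bar is the mean ± SD (n = 3). Plin2, Plin3 and Acadm have every DSS point above the control points, and Acsl3, Acsl4, Elovl5, Elovl6, Dgat2 and Acadl have every DSS point below them.

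In the synthesis group, 6 of 7 tested members had lower values in DSS and 1 had a higher value, with a median log2 difference of -0.50 against 0.03 over all tested genes. Only the elongases had groups that did not overlap. Elovl5 (chr9:77917364-77984519) extends polyunsaturated fatty acids and was the most abundant synthesis gene. It measured 215, 196 and 191 FPKM in control replicates 1, 2 and 3 and 125, 143 and 144 in DSS replicates 1, 2 and 3. Every DSS value was well below the lowest control value, with little spread inside either group. The means were 200.8 ± 12.8 and 137 ± 11.1 FPKM (SD, n = 3 each), and the difference was -0.55 ± 0.19 on the log2 scale (SE, limma adjusted p = 0.370). Elovl6 (chr3:129532355-129638495), which extends saturated and monounsaturated products of fatty acid synthase, measured 2.90, 2.27 and 2.99 FPKM in control and 1.37, 1.67 and 1.51 in DSS, in the same order. These values were low but did not overlap, with a difference of -0.56 ± 0.32 (SE, n = 3 each, limma adjusted p = 0.682).

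The enzymes that make the fatty acid chain itself had no such separation. Acly, which splits citrate into acetyl-CoA, measured 12.2, 15.9 and 13.7 FPKM in control replicates 1, 2 and 3 and 6.65, 15.7 and 15.3 in DSS replicates 1, 2 and 3. Its value was low in DSS replicate 1 alone. Fasn, the fatty acid synthase, measured 9.24, 8.43 and 9.16 FPKM in control and 2.48, 6.17 and 13.1 in DSS, so that the DSS values spanned the control values on both sides (-0.50 ± 0.43, SE, n = 3 each, limma adjusted p = 0.813). Fads1, a front-end desaturase, had the same layout, with 3.23, 3.50 and 3.42 FPKM in control and 0.810, 2.02 and 6.58 in DSS. In both genes DSS replicate 1 was lowest and DSS replicate 3 was highest. Scd2, a stearoyl-CoA desaturase, had a difference of -0.73 ± 0.39 (SE, n = 3 each, limma adjusted p = 0.649), with DSS values of 0.611, 1.43 and 2.31 FPKM that overlapped the lowest control value of 1.96. Acaca, which makes malonyl-CoA, measured 1.51 to 2.27 FPKM in control and 1.31 to 3.73 in DSS, and 26.8% of its transcript 75-mers also occur in other genes, so its reads may be shared. Scd1 and Fads2 were below the expression filter, at 0.00885 to 1.10 FPKM and 0.0136 to 2.01 FPKM over the 6 libraries, and were not tested.

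The 4 acyl-CoA synthetases among the members trap fatty acids in the cell as acyl-CoA. Of them, 2 had lower values in DSS without overlap, against 9.6% of all tested genes. Acsl4 (chrX:142317993-142390535) prefers arachidonate and measured 10.2, 9.31 and 9.17 FPKM in control replicates 1, 2 and 3 and 3.80, 6.17 and 6.92 in DSS replicates 1, 2 and 3. All DSS libraries were below all controls, and the controls were close together. The means were 9.55 ± 0.548 and 5.63 ± 1.63 FPKM (SD, n = 3 each), and the difference was -0.70 ± 0.25 on the log2 scale (SE, limma adjusted p = 0.386). Acsl3 (chr1:78657825-78707743), which sits on the endoplasmic reticulum and lipid droplets, measured 4.16, 2.78 and 2.03 FPKM in control and 0.625, 0.686 and 1.96 in DSS. The highest DSS value, in replicate 3, lay just under the lowest control value, also in replicate 3. The ratio of means was 2.75 in favour of control, and the difference was -0.96 ± 0.41 (SE, n = 3 each, limma adjusted p = 0.512). Acsl5, the most abundant synthetase, measured 17.2, 15.6 and 21.4 FPKM in control and 9.997, 18.3 and 21 in DSS. Its groups overlapped, as did those of Acsl1 (0.695 to 1.84 FPKM in control and 1.05 to 3.68 in DSS).

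No uptake or binding gene had groups that did not overlap. These genes were low: the fatty acid translocase Cd36 measured 1.99, 1.19 and 1.58 FPKM in control replicates 1, 2 and 3 and 1.98, 1.56 and 1.75 in DSS replicates 1, 2 and 3. The DSS values of Cd36 all lay inside the control range (0.10 ± 0.36 on the log2 scale, SE, n = 3 each, limma adjusted p = 0.961). Fabp4, a cytosolic fatty acid carrier also made by adipocytes, macrophages and endothelium, measured 3.39, 2.14 and 3.65 FPKM in control and 11.6, 2.91 and 2.10 in DSS. Its highest value was in DSS replicate 1 alone. Slc27a1, a transporter with acyl-CoA synthetase activity, measured 2.11, 3.76 and 4.79 FPKM in control and 1.46, 3.10 and 5.03 in DSS. It was lowest in replicate 1 and highest in replicate 3 of both groups. The related Slc27a4 was at 2.53 to 3.09 FPKM in control and 1.84 to 6.18 in DSS, with its highest value in DSS replicate 3. Fabp5, a second cytosolic carrier, was at 2.74 to 3.47 and 1.83 to 5.07 FPKM. Lpl, which frees fatty acids from circulating lipoproteins, was below the filter at 0.0506 to 0.650 FPKM.

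Among the PPAR receptors and their coactivator, Pparg was the one clearly expressed in every library. It measured 22.8, 17.7 and 19.2 FPKM in control replicates 1, 2 and 3 and 17.9, 24.7 and 24.7 in DSS replicates 1, 2 and 3. DSS replicates 2 and 3 were above all controls and DSS replicate 1 was among them, with a difference of 0.15 ± 0.22 (SE, n = 3 each, limma adjusted p = 0.891). Ppara measured 0.0251, 0.578 and 1.71 FPKM in control and 0.410, 0.320 and 4.06 in DSS, so it was highest in replicate 3 of each group. Ppard, the receptor found in most tissues, was at 0.809 to 1.31 and 0.427 to 1.65 FPKM. Ppargc1a, which encodes the coactivator PGC-1alpha, was below the filter at 0.106 to 2.50 FPKM, with its 2 highest values in both replicates 3.

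**Figure D3:**
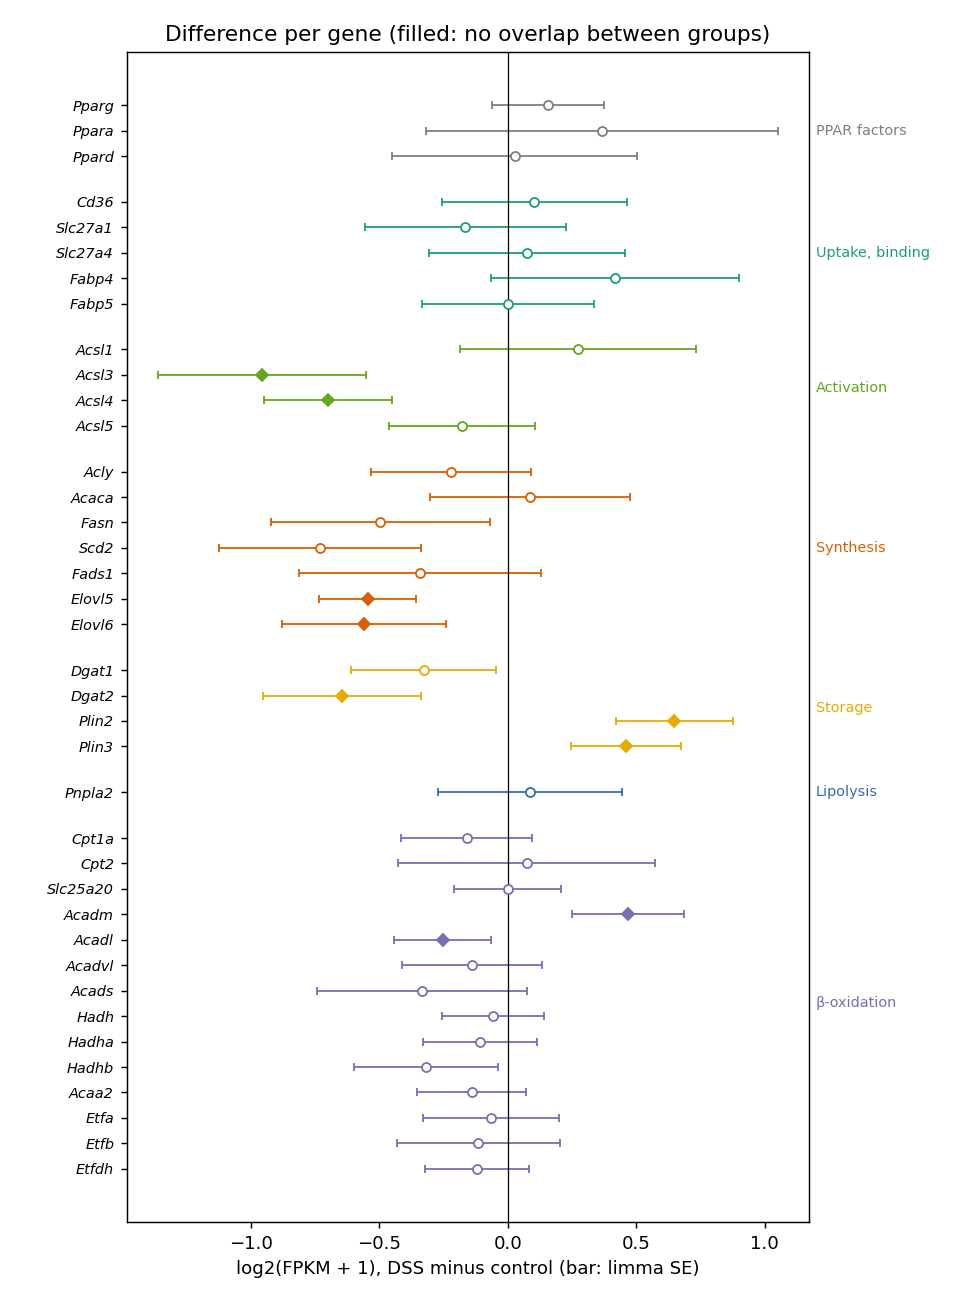
Difference between DSS and control on the log2(FPKM + 1) scale (x axis) with its standard error from limma for each of the 38 tested members, grouped by role, with filled symbols where the groups did not overlap. Differences run from -0.96 for Acsl3 to 0.65 for Plin2, and none had an adjusted p under 0.05.

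In the catabolic arm, 11 of 15 tested members had a log2 difference below 0, 3 had one above 0 and Slc25a20 had one of 0.00, and the median was -0.12. Pnpla2 encodes adipose triglyceride lipase, which takes the first fatty acid off a stored triglyceride. It measured 35.3, 39.8 and 34.01 FPKM in control replicates 1, 2 and 3 and 19.5, 55.6 and 52.6 in DSS replicates 1, 2 and 3. DSS replicates 2 and 3 lay above all controls and DSS replicate 1 lay below all of them, which gave a difference of 0.09 ± 0.36 (SE, n = 3 each, limma adjusted p = 0.969). Without DSS replicate 1 the difference was 0.56 and the adjusted p was 0.04996, without DSS replicate 2 it was -0.17, and over all alternatives the adjusted p ran from 0.04996 to 1.00.

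The carnitine shuttle, which carries acyl groups into mitochondria, overlapped between groups at each step. Cpt1a, its rate-controlling enzyme, was at 6.17 to 9.46 FPKM in control and 5.52 to 8.69 in DSS. The carnitine carrier Slc25a20 was at 14.6 to 20.4 and 16.4 to 19.0 FPKM, with a difference of 0.00 ± 0.21 (SE, n = 3 each). Cpt2, which returns the acyl group to coenzyme A, measured 1.97, 1.21 and 1.58 FPKM in control and 0.281, 2.83 and 3.01 in DSS. It thus had DSS replicate 1 below and DSS replicates 2 and 3 above all controls, as for Pnpla2. The DSS replicate 1 value rested on 10 fragments for Cpt2 and on 768 for Pnpla2.

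The acyl-CoA dehydrogenases start each round of beta-oxidation, and each prefers a chain length. Acadm (chr3:153922357-153944632), for medium chains, measured 8.13, 7.02 and 5.60 FPKM in control replicates 1, 2 and 3 and 9.55, 10.3 and 9.72 in DSS replicates 1, 2 and 3. Acadl (chr1:66830839-66863277), for long chains, measured 46.7, 40.3 and 45.0 FPKM in control and 39.5, 34.5 and 36.1 in DSS. The Acadm groups were apart in one direction and the Acadl groups in the other, the latter by less than 1 FPKM at the nearest libraries. The differences were 0.47 ± 0.22 for Acadm (SE, n = 3 each, limma adjusted p = 0.581) and -0.25 ± 0.19 for Acadl (limma adjusted p = 0.776), and the groups of both genes overlapped after median-of-ratios rescaling and with voom scaling, those of Acadl also after quantile normalization. Acads, for short chains, measured 11.6, 12.2 and 14.7 FPKM in control and 4.35, 18.6 and 11.5 in DSS, with DSS values on both sides of the controls. Acadvl, for very long chains, was at 31.7 to 37.5 FPKM in control and at 19.7, 37.7 and 38.8 in DSS, and 42.9% of its exonic bases overlap Dvl2 on the other strand, whose reads cannot be told apart in libraries that do not mark strand.

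The later steps of the cycle overlapped between groups. Hadh, a hydroxyacyl-CoA dehydrogenase, was at 12.1 to 13.5 FPKM in control and 11.5 to 13.5 in DSS. Hadha and Hadhb encode the subunits of the trifunctional protein, which completes the cycle for long chains. Hadha was at 11.3 to 12.7 FPKM in control and 8.53 to 12.7 in DSS, and Hadhb at 8.14 to 10.99 and 4.50 to 8.94, each with its lowest value in DSS replicate 1. For Hadhb, 16.7% of the 75-mers also occur in other genes. Acaa2, a thiolase of the cycle, measured 45.3, 47.7 and 44.1 FPKM in control replicates 1, 2 and 3. In DSS replicates 1, 2 and 3 it measured 50.1, 42.6 and 33.1, on both sides of the controls. Etfa, Etfb and Etfdh pass the electrons of beta-oxidation on to the respiratory chain. Etfb, the most abundant catabolic gene, measured 139.6, 128 and 119 FPKM in control replicates 1, 2 and 3 and 203, 106 and 78.1 in DSS replicates 1, 2 and 3. Its DSS values lay on both sides of the controls, and 58.2% of its exonic bases are shared with overlapping annotated genes, so part of these reads may belong to them. Etfa was at 27.5 to 43.3 FPKM in control and 25.3 to 41.97 in DSS, with the highest value in replicate 1 of both groups, and Etfdh at 13.0 to 15.5 and 11.5 to 14.5.

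**Figure D4:**
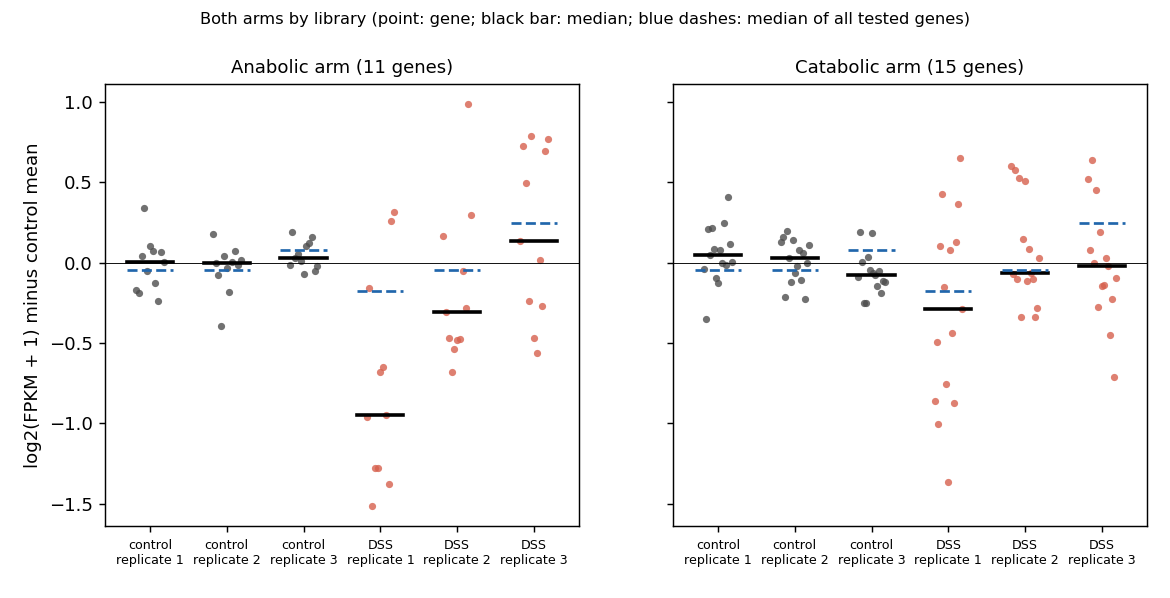
Median difference from the control mean on the log2(FPKM + 1) scale (y axis) in each library (x axis), over the 11 tested anabolic members and the 15 tested catabolic members (black bars, with 1 point per gene) and over all 12187 tested genes (blue dashes). The anabolic median was -0.95 in DSS replicate 1 and 0.13 in DSS replicate 3, a wider range than that of the catabolic arm.

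Set side by side, the tested members of the arms also differed in how far apart the DSS libraries lay. Each value here is the median over the tested genes of an arm of the difference from the control mean, on the log2(FPKM + 1) scale. For the anabolic arm it was -0.95, -0.31 and 0.13 in DSS replicates 1, 2 and 3, and between -0.003 and 0.03 in the control libraries. For the catabolic arm it was -0.29, -0.06 and -0.02 in the same DSS libraries, and over all tested genes it was -0.17, -0.05 and 0.25. The DSS replicate 1 value was thus the lowest in both arms. Measured from the control mean, the DSS replicates did not share a direction in the anabolic arm. In each DSS library, however, the median of either arm lay below that of all tested genes, for the catabolic arm in DSS replicate 2 only slightly. DSS replicate 1 held the lowest of the 6 values for 8 of 11 anabolic and 8 of 15 catabolic members, or 72.7% and 53.3%, against 37.1% of all tested genes. The 22 tested anabolic genes of the wider list described below did not share this spread. Their medians were -0.347, -0.12 and 0.025 in DSS replicates 1, 2 and 3, and DSS replicate 1 was lowest for 40.9% of them. For the 27 wider catabolic genes the medians were -0.074, 0.138 and 0.345, and the share was 25.9%. Over all 11 anabolic members the median difference between groups was -0.34, and it was 0.01 without DSS replicate 1. Over all tested genes it was 0.03, and 0.12 without DSS replicate 1. The sums over T cell markers (62.6 FPKM) and over B and plasma cell markers (291 FPKM) were highest in DSS replicate 1, and those over dendritic cell markers (6.43 FPKM) and endothelium markers (4.69 FPKM) were lowest there. The low endothelium sum came from Pecam1 (1.43 FPKM, against 7.36 to 13.3 in the other libraries), and the low dendritic sum from Zbtb46 and Xcr1. Other genes of these lists went the other way. Flt3 was at 1.10 FPKM in DSS replicate 1 against 0.0650 to 0.651 in control, and Cd3e was lowest in DSS replicate 1. This library also had the highest share of ribosomal protein fragments, 12.49% against 5.97% to 8.47%, and the highest sum of all FPKM values, 550141 against 424865 to 462759. The part of these in its low values was not tested.

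Leaving out a library also changed which members were apart. Without DSS replicate 1, 8 of 38 members were higher in DSS with no overlap, against 16.9% of all tested genes, and these were Pparg, Ppard, Plin2, Plin3, Pnpla2, Cpt2, Acadm and Acadvl. In that setting 10 were lower, against 14.6% of all tested genes, with Hadh, Acaa2, Etfa and Etfb joining the 6 named above. Without DSS replicate 3, the lower members numbered 10, against 19.9% of all tested genes, with Slc27a4, Fasn, Scd2 and Fads1 added to the 6. Fewer libraries make separation easier for any gene, so these counts are read only beside those shares.

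The wider pathway was read from 101 further genes, of which 68 passed the filter. No gene of this wider list passed the test (limma, 0 of 68, with 5 at an unadjusted p under 0.05), and 38 had higher and 30 lower values in DSS. By list, 6 of 13 regulators, 4 of 6 uptake and activation genes, 10 of 22 anabolic genes and 18 of 27 catabolic genes had higher values in DSS. Groups did not overlap for 6 genes higher in DSS (8.82%) and 8 lower (11.8%), near the shares of all tested genes.

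The lower end of the wider list was led by Hacd3, a dehydratase of the elongation cycle in which Elovl5 and Elovl6 perform the first step. Its FPKM was 91.5, 91.2 and 94.8 in control replicates 1, 2 and 3 and 43.0, 47.7 and 48.4 in DSS replicates 1, 2 and 3. Both groups were tight, and the gap between them was wider than the spread inside either. The difference was -0.98 ± 0.18 on the log2 scale (SE, n = 3 each, limma adjusted p = 0.0982), with an adjusted p between 0.00147 and 0.580 over the alternatives. Hsd17b12, which carries out a reduction in the same cycle, measured 28.4, 34.2 and 26.9 FPKM in control and 20.7, 14.2 and 16.2 in DSS. Its groups did not overlap either (-0.78 ± 0.22, SE, n = 3 each, limma adjusted p = 0.225).

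Hilpda, a droplet protein that inhibits the lipase made by Pnpla2, had the highest mean FPKM of all 12187 tested genes. It measured 14892, 15449 and 14385 FPKM in control replicates 1, 2 and 3 and 11579, 7027 and 6221 in DSS replicates 1, 2 and 3. All DSS values were below the controls, DSS replicate 1 being the nearest. The means were 14909 ± 532 and 8276 ± 2889 FPKM (SD, n = 3 each), and the difference was -0.90 ± 0.31 (SE, limma adjusted p = 0.364). Hilpda, Hacd3 and Hsd17b12 passed under 2 alternatives, without DSS replicate 1 and with gene-by-gene library weights.

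Among wider regulators, Pprc1, a PGC-1-related coactivator, and Ncor1, a corepressor of nuclear receptors, had lower DSS values and no overlap. Pprc1 measured 10.1, 11.5 and 11.4 FPKM in control replicates 1, 2 and 3 and 2.39, 5.95 and 9.70 in DSS replicates 1, 2 and 3 (-0.93 ± 0.37, SE, n = 3 each, limma adjusted p = 0.475). Ncor1 measured 63.6, 60.2 and 55.2 FPKM in control and 41.8, 45.6 and 43.7 in DSS (-0.44 ± 0.18, SE, n = 3 each, limma adjusted p = 0.50). Of wider oxidation genes, Echs1, an enoyl-CoA hydratase, was lower at 8.31 to 10.5 FPKM in DSS against 11.1 to 12.1 in control. The peroxisomal transporter Abcd3 was higher at 2.84 to 3.06 FPKM against 1.99 to 2.57, and the dehydrogenase Acadsb at 1.10 to 1.74 against 0.879 to 0.983. None of these passed, and none of the 6 tested genes of the wider uptake and activation list had groups that did not overlap. Of that list's genes below the filter, which were not tested, Slc27a2 was at 0.0147 to 0.588 FPKM in control and 0.686 to 1.53 in DSS, and Gpihbp1, also an endothelium marker, at 0 to 0.425 and 0.444 to 1.14.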

How the data were processed

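RNA sequencing was done on 3 control and 3 DSS libraries. Per the labels' protocols, TRIzol RNA was turned into cDNA with SMART-Seq HT and indexed for paired-end reads with Nextera XT reagents, a chemistry blind to strand. Per the submitters' processing notes, cutadapt 1.9, HISAT2 2.2.1 and mm10 were used. On which gene models fragments were counted, and with which tool, is not given in the sources used here. FPKM values were deposited by the authors for 23268 genes, in 1 table with no unused column, and each library was placed by its title and its column name.

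The two-sided test was limma 3.58.1 in R 4.3.3 (lmFit, then eBayes with trend=TRUE), run on log2(FPKM + 1) of 12187 genes with a mean of at least 1 FPKM, adjusted by Benjamini-Hochberg with 0.05 as the threshold. A fold change on this scale understates the change of low genes. Values are within-gene comparisons, and levels of different genes are set side by side in FPKM, which is per length. Whole fragments were recovered from the FPKM steps (22701 of 22701 genes, or 100.0%, tolerance 0.001), and voom with TMM scaling on them was an alternative. A gene above 0 in a single library meets this tolerance at any value, and 21991 genes were above 0 in at least 2 libraries. Depth was 9962415 to 23119390 fragments, so a gene near 1 FPKM rests on few of them: Acsl3 had as few as 37 and Elovl6 as few as 91.

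The members and lists were chosen with earlier results of these data known, and so were the tests. Values in every library are given for members whose groups did not overlap and for the 2 most abundant members of each role, and a few others were added after their values were seen. Up to 3 wider genes per list were named by the smallest unadjusted p among those whose groups did not overlap, and 1 gene so chosen is not reported here. Deviations from the group means correlated between libraries of the same number (0.189, 0.262 and 0.545, each above 0.1). For this reason a fit that treats replicate numbers as pairs (the replicate block) was run as an alternative. The main test was unpaired. That pairing rests on the data and not on the labels, and DSS replicate 2 was closer to control replicate 1 (0.345). Overlaps and shared 75-mers are from GENCODE M21 on GRCm38, and promoters are from RefSeq. The scripts were tested on simulated data. Tables were made with Python 3.11.15 and pandas 2.3.3 and plots with matplotlib 3.10.9. Other settings tried were pseudocounts of 0.1 and 5, no filter and a filter at 5 FPKM, median-of-ratios and quantile scaling, the replicate block, library weights, voom, and leaving out libraries.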

Additional observations from a re-analysis of the deposited data

How the results depend on the processing

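Of 38 tested members, 15 kept their direction under every one of the 16 alternatives in which they were tested (Pparg, Acsl3, Acsl4, Scd2, Elovl5, Elovl6, Dgat1, Dgat2, Plin2, Plin3, Acadm, Acadl, Hadh, Hadhb and Etfdh), 23 turned under at least 1, and 3 passed under at least 1 (Elovl5, Plin2 and Pnpla2). The cause was not tested. Genes past the threshold numbered 27 of all tested, 13 with median-of-ratios rescaling, 6 with voom, 635 with gene-by-gene library weights (added after seeing the data), 5 without both replicates 3, and 4 to 413 when 1 library was left out. With the replicate block there were 22 such genes and 0 members, and the block changed no member's call. Members past the threshold numbered 2 with gene-by-gene weights (Elovl5, -0.50, adjusted p = 0.0452; Plin2, 0.88, adjusted p = 0.00441) and 0 to 2 when 1 library was left out. The default library weights stopped before convergence and are not used: they called 3286 genes and 10 members. Members apart and higher numbered 3 to 8 of 38, and lower 6 to 10, when 1 library was left out. Over all 12176 to 12187 tested genes, those counts ran from 991 to 2061 and from 1453 to 2427. Without both replicates 3, 10 of 38 members were lower, beside 2813 of 12133 tested genes. The anabolic median ran from -0.56 to 0.014 and the catabolic median from -0.18 to -0.03 when 1 library was left out, and the uptake median was -0.084 after quantile normalization. Over all genes the median shifted to 0.12 without DSS replicate 1, to -0.11 without DSS replicate 3 and to 0.12 with no filter.

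Log2 differences that turned were as follows. Pseudocount 0.1 gave -0.032 for Ppard, -0.023 for Fabp5 and -0.13 for Cpt2, and pseudocount 5 gave -0.001 for Slc25a20. Median-of-ratios rescaling gave -0.00037 for Ppard and -0.025 for Slc25a20. Quantile normalization gave -0.20 for Ppard, -0.084 for Cd36, -0.20 for Fabp5, -0.059 for Acaca, -0.10 for Cpt2, 0.004 for Acadvl and 0.005 for Etfa. Gene-by-gene weights gave -0.23 for Slc27a4, -0.10 for Fabp5, 0.055 for Acsl5, 0.039 for Acly, -0.12 for Acaca, -0.14 for Slc25a20, 0.051 for Acadvl, 0.30 for Acads and 0.009 for Hadha. Voom gave -0.044 for Slc27a4, -0.041 for Fabp5, -0.11 for Cpt2 and -0.017 for Slc25a20. Without both replicates 3 the values were -0.35 for Slc27a4, -0.14 for Acaca, -0.18 for Pnpla2, -0.21 for Cpt2, -0.12 for Slc25a20 and 0.13 for Etfb. Leaving out 1 library gave ranges of -0.26 to 0.73 for Ppara, -0.15 to 0.30 for Ppard, -0.01 to 0.21 for Cd36, -0.47 to 0.17 for Slc27a1, -0.35 to 0.32 for Slc27a4, -0.20 to 0.81 for Fabp4, -0.30 to 0.25 for Fabp5, -0.10 to 0.50 for Acsl1, -0.38 to 0.12 for Acsl5, -0.41 to 0.15 for Acly, -0.23 to 0.28 for Acaca, -0.99 to 0.014 for Fasn, -0.91 to 0.13 for Fads1, -0.17 to 0.56 for Pnpla2, -0.34 to 0.006 for Cpt1a, -0.21 to 0.61 for Cpt2, -0.13 to 0.10 for Slc25a20, -0.30 to 0.17 for Acadvl, -0.75 to 0.18 for Acads, -0.21 to 0.056 for Hadha, -0.28 to 0.015 for Acaa2, -0.28 to 0.14 for Etfa and -0.50 to 0.19 for Etfb. With 3 libraries a group, low genes rest on few fragments, and their differences are the least certain.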

Other observations

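The wider list held further genes of the elongation cycle, which are described here because of the values of Hacd3 and Hsd17b12. The elongase Elovl1 measured 46.1, 60.7 and 54.7 FPKM in control replicates 1, 2 and 3 and 42.4, 40.8 and 39.0 in DSS replicates 1, 2 and 3, with no overlap (-0.39 ± 0.20 on the log2 scale, SE, n = 3 each, limma adjusted p = 0.625). Elovl7 was on the other side with no overlap, at 0.224, 0.267 and 0.661 FPKM in control and 0.914, 0.792 and 1.43 in DSS, but was below the expression filter and not tested. Elovl3 (0 to 0.7504 FPKM in control and 0 to 0.211 in DSS) and Elovl4 (0.62 to 1.27 and 0.0444 to 1.85) were also below the filter, and their groups overlapped. Hacd2, the paralogue of Hacd3, was higher in DSS, at 4.27, 4.48 and 5.01 FPKM in control and 8.45, 6.25 and 5.67 in DSS (0.47 ± 0.24, SE, n = 3 each, limma adjusted p = 0.632). Tecr, which performs the last reduction, overlapped at 155 to 181 FPKM in control and 109.6 to 200.5 in DSS. None of the tested genes passed.

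Ratios of 2 genes within a library do not depend on its scaling. The 5 computed were chosen after the values were seen and carry no test, and where a gene apart and higher is divided by one apart and lower the groups of the ratio cannot overlap. That is so for Plin2 over Elovl5 (0.780, 0.810 and 0.809 in control replicates 1, 2 and 3 and 1.54, 2.23 and 1.80 in DSS replicates 1, 2 and 3), for Plin2 over Dgat2 (1.49 to 2.14 and 3.40 to 5.48) and for Acadm over Acadl (0.125 to 0.174 and 0.242 to 0.299). Plin2 over Dgat1, of which Dgat1 overlapped between groups, was 0.281, 0.244 and 0.218 in control and 0.571, 0.510 and 0.395 in DSS. Plin3 over Plin2 overlapped, at 0.0678, 0.0722 and 0.0722 in control and 0.0746, 0.0444 and 0.0769 in DSS.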
